A study of Mus musculus with 120 samples.

Results

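The 8 genes that mark thalamic neurons (Slc17a6, Calb2, Prkcd, Tcf7l2, Lef1, Gbx2, Rora and Ntng1) were followed through 120 RNA-seq libraries from mouse brain. They were taken by gene symbol, and all 8 of 8 were found among 49466 genes kept per library. Every mouse was C57BL/6J and had been given an adeno-associated virus behind the eye, 3 weeks ahead of dissection, and cortex, thalamus and hypothalamus were profiled in 30 groups of 4 libraries, described as biological replicates. Wild-type mice carried a virus for mCherry (the control), HDAC4CA or CREB and were sampled at Zeitgeber time (ZT) 12.5 h. A second control virus, eGFP, was given to wild-type mice and to Sik3E13delta/+ mice, called Sleepy, at ZT0.5 and ZT12.5. Sleepy mice also received HDAC4CA at ZT0.5 and ZT12.5 and CREB at ZT12.5, so the Sleepy transgene groups and their eGFP controls all carry the Sik3 allele. The labels give neither the promoter of the viruses, nor the animals' age or sex, nor whether the 3 regions came from the same animals.

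The thalamus relays sensory and motor signals to the cortex, and its relay neurons release glutamate. Sik3 is a kinase of the salt-inducible family, and the Sleepy allele removes exon-encoded sequence with its phosphorylation site for protein kinase A. HDAC4 is a class IIa histone deacetylase that SIK kinases phosphorylate, and CREB is the cAMP-responsive transcription factor. Slc17a6 encodes VGLUT2, the vesicular glutamate transporter of relay neurons. Calb2 encodes the calcium-binding protein calretinin, and Prkcd the delta isoform of protein kinase C. Tcf7l2 and Lef1 are partners of beta-catenin in Wnt signalling, Gbx2 is a homeodomain factor needed for thalamic development in mice, and Rora is an orphan nuclear receptor. Ntng1 encodes netrin-G1, a membrane-anchored protein of thalamocortical axons.

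Values below are the deposited RPKM (wild-type mCherry, HDAC4CA and CREB) or FPKM (all other groups), that is, reads or fragments per length and depth, after a scaling factor for each library, and the 2 units were never compared. A gene "passed" when limma's adjusted p over all genes tested was below 0.05, and differences are log2 differences of scaled values with a pseudocount of 0.1, which understates the change of low genes. Recovered depth was 13.52 to 28.16 M reads per library, with a median of 18.7 M. Some libraries stood apart. In wild-type cortex, replicate 4 of mCherry, HDAC4CA and CREB had a mean log2 RPKM of 84 ribosomal-protein genes of 1.57, 1.54 and 1.55, where the other replicates lay from 3.498 to 3.71, and every RPKM library of thalamus and hypothalamus was low like these (1.49 to 1.91). Without those cortex libraries 8 members passed between thalamus and cortex of mCherry mice, where 5198 of 16613 genes were called higher in thalamus. Every thalamus library is then low and every cortex library high, so region and this level cannot be told apart in that comparison. For HDAC4CA and for CREB in wild-type cortex 0 members passed with or without them. Of all genes, 543 of 15728 and 5 of 15854 were called without them, and 903 of 15910 and 6 of 16086 with them. In the FPKM libraries 1 hypothalamus library stood apart in the thalamic genes themselves and is described with that region. On the scale of the test, Hdac4 was 2.83-fold higher with HDAC4CA in wild-type thalamus, 3.68-fold in Sleepy thalamus at ZT12.5 and 3.06-fold at ZT0.5. Creb1 was 3.04-fold higher with CREB in wild-type thalamus and 7.12-fold in Sleepy thalamus. The same measure gave Hdac4 gains with HDAC4CA of 1.72-fold in wild-type hypothalamus, 2.04- and 2.22-fold in Sleepy hypothalamus at ZT12.5 and ZT0.5, and 1.70- to 1.83-fold in cortex. Creb1 rose with CREB by 1.87-fold in wild-type and 3.12-fold in Sleepy cortex and by 2.16-fold in Sleepy hypothalamus. In wild-type hypothalamus Creb1 was 1.38-fold higher and did not pass (limma adjusted p = 0.139).

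The promoters of 3 genes are shown because these genes changed with HDAC4CA in thalamus and because RefSeq gives their starts (GRCm38.p6; the 250 bases before the start, 5′ to 3′ on the gene's strand). Capitals mark matches on either strand to TGACG, the short core of CREB sites, or to CTTTGA, the core of TCF and LEF sites.
Tcf7l2 promoter (chr19:55741560-55741809, + strand): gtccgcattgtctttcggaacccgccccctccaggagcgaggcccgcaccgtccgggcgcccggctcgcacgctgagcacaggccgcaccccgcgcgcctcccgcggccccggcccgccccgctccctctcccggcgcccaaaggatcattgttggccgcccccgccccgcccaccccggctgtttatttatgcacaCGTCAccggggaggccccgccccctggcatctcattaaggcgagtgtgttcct
Prkcd promoter (chr14:30626209-30626458, − strand): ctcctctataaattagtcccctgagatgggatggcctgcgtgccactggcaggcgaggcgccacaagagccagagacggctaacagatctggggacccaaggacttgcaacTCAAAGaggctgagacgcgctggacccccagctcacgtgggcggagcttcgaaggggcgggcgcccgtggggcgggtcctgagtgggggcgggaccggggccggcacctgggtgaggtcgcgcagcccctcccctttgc
Gbx2 promoter (chr1:89931177-89931426, − strand): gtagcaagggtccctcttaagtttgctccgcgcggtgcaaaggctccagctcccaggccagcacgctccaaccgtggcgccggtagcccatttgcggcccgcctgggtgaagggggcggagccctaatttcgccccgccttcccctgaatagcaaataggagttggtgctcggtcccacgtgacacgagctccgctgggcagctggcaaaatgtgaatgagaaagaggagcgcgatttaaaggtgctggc
The Tcf7l2 window held 1 TGACG match and the Prkcd window 1 CTTTGA match, and the Gbx2 window held neither. Over all 32851 promoter windows of this length, 17.8% held TGACG, 13.8% held CTTTGA, 14.0% held AGGTCA (the core of ROR receptor sites) and 2.92% held the MEF2 consensus. None of the 7 members with a window had a match to AGGTCA or to the MEF2 consensus, which says only that these letters are not in these windows. The motifs do not overlap each other at the marked places, and a match is a description of the letters. The Ntng1 window lies within the GENCODE gene model (chr3:109780040-110144011) and is not shown, and Calb2 had no entry. GC content was 72.8% in the Tcf7l2 window, 67.6% in Prkcd, 66.4% in Lef1, 62.4% in Ntng1, 61.6% in Gbx2, 61.2% in Rora and 53.2% in Slc17a6, against 53.2% over all windows.

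In wild-type mice all 8 genes were higher in thalamus than in cortex, in each of the 3 settings tested. The differences passed for 8 of 8 in mCherry mice, where 30.2% of all genes tested were called higher, for 8 of 8 in eGFP mice at ZT12.5 (26.1%) and for 8 of 8 in eGFP mice at ZT0.5 (22.6%). Gbx2 reached the read minimum for testing only through its thalamus libraries, so its place in these counts was largely fixed beforehand. The members' median difference was 3.61, 3.56 and 3.47 on the log2 scale in these settings, against 0.03, 0.02 and 0.02 over all genes. No thalamus library overlapped a cortex library for any member. The share of all genes with such separation was not computed, here or for the groups described as apart below. Among the 19 other thalamic relay genes listed, 18 were higher in thalamus in each setting.

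Prkcd had the highest level. In eGFP thalamus at ZT12.5 its 4 libraries stood at 69.8, 71.0, 66.8 and 63.4 scaled FPKM, against 0.726, 0.842, 1.12 and 0.807 in cortex. The difference was 6.14 ± 0.11 (log2 ± SE; 70.4-fold; limma adjusted p = 1.79e-10). Tcf7l2 followed the same pattern with 21.03, 18.7, 21.6 and 24.3 in thalamus against 0.406, 0.531, 0.563 and 0.407 in cortex, a 37.4-fold difference (log2 5.22 ± 0.11; limma adjusted p = 6.88e-10). Slc17a6 was 13.1-fold higher, Calb2 10.7-fold, Ntng1 9.96-fold, Lef1 7.59-fold and Rora 5.25-fold. Rora was also the member with the highest level in cortex (6.92 ± 0.72, SD, n = 4).

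Gbx2 was close to absent from cortex. At ZT0.5 its cortex libraries held 0 to 3 reads against 147 to 258 in thalamus, and at ZT12.5 they held 1 to 14 against 334 to 445. No fold is given, because the fitted difference moved between 2.58 and 7.24 log2 units with the processing at ZT0.5. A count of 0 allows up to 3 reads by counting error alone. Gbx2 was too low to be tested for changes within cortex.

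Levels per length can be ordered within a group. In eGFP thalamus at ZT12.5 the order was Prkcd (67.8 ± 3.4 scaled FPKM, SD, n = 4), Calb2 (43.8 ± 2.9), Rora (36.6 ± 0.7), Slc17a6 (36.3 ± 2.5), Tcf7l2 (21.4 ± 2.3), Ntng1 (18.6 ± 1.2), Gbx2 (8.83 ± 0.73) and Lef1 (4.49 ± 0.35). Rora and Slc17a6 overlapped, as did Tcf7l2 and Ntng1, and the other neighbours did not. The order differed in hypothalamus, where Calb2 (44.2 ± 1.7) and Slc17a6 (24.5 ± 1.8) led and Rora came next at 4.42 ± 0.08. In cortex Rora led, followed by Calb2 at 4.12 ± 1.15 and Slc17a6 at 2.68 ± 0.15.

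**Figure D1:**
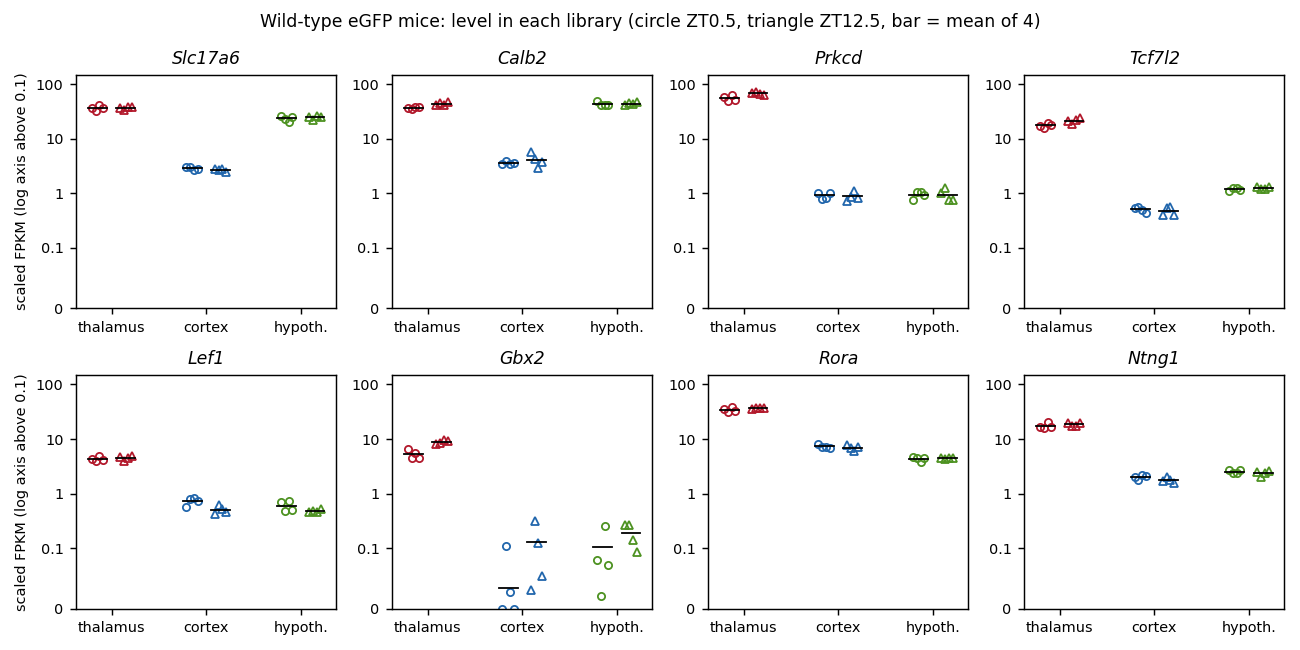
Scaled FPKM (log axis above 0.1) of the 8 genes in each library of wild-type eGFP mice, by region, with circles for ZT0.5, triangles for ZT12.5 and bars for means of 4 libraries. All 8 genes lie above cortex in thalamus, and Calb2 is as high in hypothalamus as in thalamus.

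Against hypothalamus all members but Calb2 were called higher in thalamus. In thalamus, 7 of 8 were higher in mCherry mice (26.6% of all genes were called higher), in eGFP mice at ZT12.5 (28.7%) and in eGFP mice at ZT0.5 (19.1%). Gbx2 is among them and again reached the read minimum only through its thalamus libraries. Prkcd was 66.8-fold higher than in hypothalamus in eGFP mice at ZT12.5 (log2 6.06 ± 0.14), Tcf7l2 15.8-fold, Rora 8.12-fold, Lef1 7.92-fold and Ntng1 7.56-fold. Slc17a6 was only 1.48-fold higher (log2 0.57 ± 0.06; limma adjusted p = 4.16e-05). VGLUT2 is known as a transporter of hypothalamic neurons too. Calb2 was the exception. At ZT0.5 its thalamus libraries stood at 36.6, 34.6, 37.6 and 38.3 scaled FPKM and its hypothalamus libraries at 49.0, 42.2, 41.9 and 41.2, and it was lower in thalamus (log2 −0.24 ± 0.06; limma adjusted p = 0.0132), where 18.4% of all genes were called lower. At ZT12.5 the difference was −0.02 ± 0.05 in eGFP mice (limma adjusted p = 0.828) and −0.16 ± 0.07 in mCherry mice (limma adjusted p = 0.0685). The region comparison of mCherry mice sets thalamus libraries of low ribosomal-protein mRNA level (mean log2 1.52 to 1.69) beside 3 cortex libraries at 3.61 to 3.70 and 1 at 1.57. In eGFP mice the level was 4.07 to 4.27 in thalamus and 3.70 to 3.96 in cortex. The part of this level in the region differences was not tested.

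HDAC4CA changed 2, 2 and 3 of the 8 genes in its 3 thalamus comparisons (wild type, Sleepy at ZT12.5 and Sleepy at ZT0.5), and the direction differed between genes. Ntng1 fell in all 3. Tcf7l2 passed as higher in wild-type mice, Prkcd as higher in Sleepy mice at both times, and Gbx2 as lower in Sleepy mice at ZT0.5. In wild-type thalamus 1 member rose and 1 fell of 8 tested, where 7.17% of all genes were called. In Sleepy thalamus at ZT12.5, 1 rose and 1 fell (11.9% called), and at ZT0.5, 1 rose and 2 fell (9.05% called). The members' median change was 0.01, 0.07 and −0.02 on the log2 scale, close to −0.01, 0.01 and 0.01 over all genes. In bulk tissue, fewer cells of a type and less RNA per cell cannot be told apart.

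Ntng1 was the member that moved most. In wild-type thalamus the mCherry libraries stood at 27.2, 27.3, 24.8 and 26.9 scaled RPKM and the HDAC4CA libraries at 15.9, 16.6, 17.5 and 17.4. No library of one group reached the other. The change was −0.65 ± 0.05 (log2 ± SE; 1.57-fold lower; limma adjusted p = 4.76e-05). In Sleepy thalamus at ZT12.5, Ntng1 stood at 20.6, 18.04, 16.3 and 19.97 scaled FPKM with eGFP and at 12.0, 11.3, 12.6 and 13.5 with HDAC4CA (log2 −0.59 ± 0.08; limma adjusted p = 0.00193). At ZT0.5 it stood at 20.9, 20.7, 18.5 and 19.7 with eGFP and at 12.4, 10.2, 10.7 and 10.7 with HDAC4CA (log2 −0.86 ± 0.07; limma adjusted p = 0.000123). The groups were again apart at both times, and the change at ZT12.5 minus that at ZT0.5 was 0.26 ± 0.11 (limma adjusted p = 0.585).

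Tcf7l2 stood at 26.9, 27.8, 25.5 and 27.6 scaled RPKM in wild-type mCherry thalamus and at 32.2, 31.5, 35.4 and 36.2 with HDAC4CA. All HDAC4CA libraries were above all controls, and the change was 0.33 ± 0.05 (log2 ± SE; limma adjusted p = 0.00515). In Sleepy thalamus the differences were 0.41 ± 0.13 at ZT12.5 (limma adjusted p = 0.0668) and 0.32 ± 0.09 at ZT0.5 (limma adjusted p = 0.0534), and neither passed by limma, while voom on recovered reads called the difference at ZT0.5 (voom adjusted p = 0.0323). Without replicate 3 of the eGFP group the difference at ZT12.5 was smaller (log2 0.31 ± 0.11; limma adjusted p = 0.132). At ZT0.5 the groups did not overlap, with 23.3, 22.6, 17.1 and 19.7 scaled FPKM for eGFP and 26.2, 25.4, 26.4 and 24.6 for HDAC4CA.

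Prkcd stood at 66.8, 61.1, 56.9 and 76.3 scaled FPKM in Sleepy eGFP thalamus at ZT12.5 and at 85.9, 80.3, 110.0 and 102.4 with HDAC4CA (log2 0.53 ± 0.11; limma adjusted p = 0.0151). At ZT0.5 it stood at 54.1, 65.9, 54.0 and 57.1 with eGFP and at 81.0, 83.5, 88.8 and 75.2 with HDAC4CA (log2 0.51 ± 0.07; limma adjusted p = 0.00251). The groups were apart at both times. Without replicate 3 of the eGFP group the difference at ZT12.5 was smaller and still passed (log2 0.47 ± 0.12; limma adjusted p = 0.0386). In wild-type thalamus, mCherry libraries stood at 77.4, 76.2, 67.8 and 68.7 scaled RPKM and HDAC4CA libraries at 75.9, 80.1, 96.3 and 97.1, and the groups overlapped (log2 0.26 ± 0.09; limma adjusted p = 0.104). Without replicate 1 of that HDAC4CA group the wild-type difference passed (log2 0.33; limma adjusted p = 0.0406).

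Gbx2 fell with HDAC4CA in Sleepy thalamus at ZT0.5, from 6.802, 7.02, 6.71 and 6.50 scaled FPKM to 5.53, 4.798, 4.90 and 4.92 (log2 −0.42 ± 0.06; limma adjusted p = 0.00258). The ranges do not meet, and each library held 178 to 283 reads. At ZT12.5 the difference was −0.26 ± 0.17 (limma adjusted p = 0.385), with 10.51, 8.78, 5.86 and 10.4 scaled FPKM for eGFP and 6.77, 6.26, 8.15 and 7.87 for HDAC4CA. Replicate 3 of the eGFP group was the lowest there, and without it the difference was −0.44 ± 0.10 (limma adjusted p = 0.0314). In wild-type mice the difference was −0.09 ± 0.10 (limma adjusted p = 0.624). Slc17a6, Calb2, Lef1 and Rora did not pass by limma in any of the 3 comparisons, with differences between −0.24 (Lef1 at ZT0.5, limma adjusted p = 0.0909) and 0.14 (Calb2 at ZT0.5). With voom, Lef1 passed at ZT0.5 (log2 −0.24; voom adjusted p = 0.0243).

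CREB passed for no member in thalamus under limma: 0 of 8 in wild-type mice, where 3.47% of all genes were called, and 0 of 8 in Sleepy mice, where 4.3% were called. At an unadjusted p under 0.05 there were 4 members in wild-type mice, where 17.8% of all genes were below it, and 2 in Sleepy mice, where 19.7% were, and limma voom on recovered reads called 2 (Lef1 and Ntng1) and 1 (Ntng1). Lef1 stood at 4.81, 4.95, 4.26 and 4.86 scaled RPKM with mCherry and at 4.39, 3.57, 3.76 and 4.03 with CREB (log2 −0.26 ± 0.07; limma adjusted p = 0.0881). In Sleepy mice it stood at 4.82, 4.06, 3.32 and 4.75 scaled FPKM with eGFP and at 3.18, 3.81, 2.84 and 3.15 with CREB (log2 −0.37 ± 0.13; limma adjusted p = 0.143). The groups overlapped in both. Ntng1 differed by −0.19 ± 0.05 (limma adjusted p = 0.0655) and −0.27 ± 0.08 (limma adjusted p = 0.0952). The other members at that unadjusted threshold in wild-type mice were higher with CREB. Slc17a6 stood at 51.5, 47.5, 49.7 and 51.4 scaled RPKM with mCherry and at 52.5, 55.7, 52.8 and 52.4 with CREB (log2 0.09 ± 0.04; limma adjusted p = 0.224), the only member whose groups did not overlap there. Prkcd stood at 67.8 to 77.4 with mCherry and at 76.0 to 83.6 with CREB (log2 0.16 ± 0.05; limma adjusted p = 0.134). Without eGFP replicate 3 the Sleepy difference for Ntng1 was −0.33 ± 0.07 (limma adjusted p = 0.0427).

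**Figure D2:**
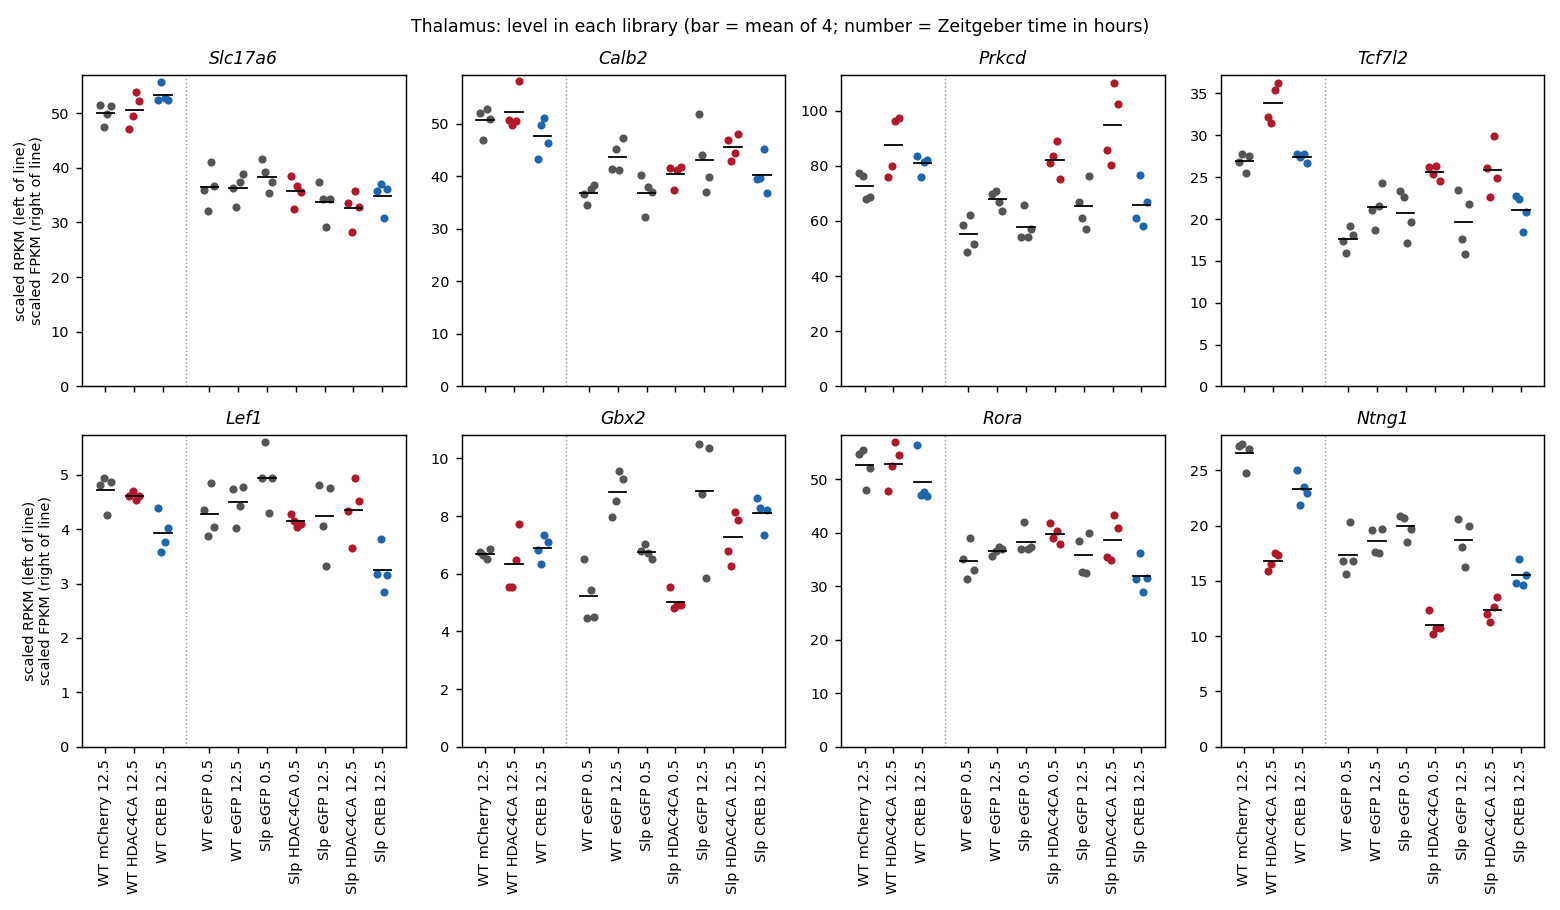
Scaled level of each gene in each thalamus library, RPKM left and FPKM right of the dotted line, with bars for means of 4 libraries (red HDAC4CA, blue CREB, grey control viruses; Slp is Sleepy; the number is ZT in hours). Ntng1 is lower in every HDAC4CA group than in its controls, and Gbx2 in Sleepy eGFP mice at ZT12.5 spreads from 5.86 to 10.51.

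**Figure D3:**
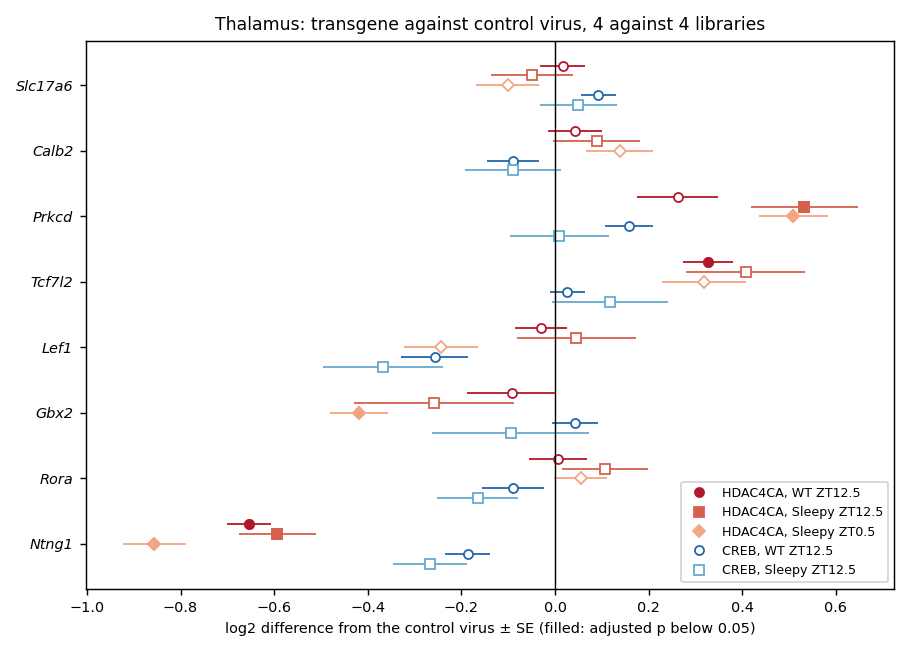
Log2 difference (± SE) between transgene and control virus in thalamus for the 8 genes, 4 against 4 libraries, with filled symbols for an adjusted p below 0.05. Ntng1 stands at −0.65, −0.59 and −0.86 with HDAC4CA, and no CREB symbol is filled.

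HDAC4CA and CREB share their control libraries, so the 2 transgenes were also set directly against each other. In wild-type thalamus 13.4% of all genes were called in that comparison, and in Sleepy thalamus 14.2%. Ntng1 was lower with HDAC4CA than with CREB in both (log2 −0.47 ± 0.05, limma adjusted p = 0.00035; log2 −0.33 ± 0.07, limma adjusted p = 0.0111). Tcf7l2 was higher with HDAC4CA in wild-type mice (log2 0.30 ± 0.05; limma adjusted p = 0.00332), with 27.8, 27.4, 27.8 and 26.7 scaled RPKM in the CREB libraries. Prkcd was higher with HDAC4CA in Sleepy mice (log2 0.52 ± 0.11; limma adjusted p = 0.0148), and this call was lost without rescaling between libraries (log2 0.40; limma adjusted p = 0.0566). Lef1 was higher with HDAC4CA in both (log2 0.23 ± 0.06, limma adjusted p = 0.0397; log2 0.41 ± 0.11, limma adjusted p = 0.0299). The Lef1 calls were lost under 11 of 14 alternatives in wild-type and 9 of 14 in Sleepy mice, among them the replicate block. With voom, Tcf7l2 and Rora also passed as higher with HDAC4CA in Sleepy mice (log2 0.29 and 0.27; voom adjusted p = 0.0343 and 0.0369).

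In cortex, where the 8 genes are low, HDAC4CA lowered 2 of the 7 members tested in Sleepy mice at ZT12.5, where 10.4% of all genes were called. Rora stood at 7.15, 7.54, 7.19 and 6.78 scaled FPKM with eGFP and at 5.64, 5.28, 5.31 and 5.44 with HDAC4CA (log2 −0.40 ± 0.06; limma adjusted p = 0.00175). Ntng1 stood at 2.07, 1.61, 2.24 and 1.87 with eGFP and at 1.39, 1.03, 1.57 and 1.12 with HDAC4CA (log2 −0.58 ± 0.15; limma adjusted p = 0.036). Neither gene's groups overlapped. The Ntng1 call was lost when any of 6 single libraries was left out, with an adjusted p up to 0.101. No member passed in the other 4 transgene comparisons of cortex by limma, where 5.68% (HDAC4CA, wild type), 3.79% (HDAC4CA, Sleepy at ZT0.5), 0.0373% (CREB, wild type) and 0.0674% (CREB, Sleepy) of all genes were called. At an unadjusted p under 0.05, Ntng1 and Rora were lower in both HDAC4CA comparisons, where 21.3% (wild type) and 18.3% (Sleepy) of all genes were below it, and there were 0 members in the CREB comparisons, where 6.33% and 9.4% were. By limma, Ntng1 differed by −0.36 ± 0.10 in wild-type mice (limma adjusted p = 0.0505) and by −0.42 ± 0.11 in Sleepy mice at ZT0.5 (limma adjusted p = 0.0566), and Rora by −0.30 ± 0.09 in the latter (limma adjusted p = 0.115). With voom on recovered reads Ntng1 passed in both (log2 −0.38 and −0.44; voom adjusted p = 0.0167 and 0.00684) and Rora in Sleepy mice at ZT0.5 (log2 −0.31; voom adjusted p = 0.0107). Deviations of same-numbered wild-type cortex libraries were correlated, most strongly for replicate 4, the low ribosomal-protein library in each group. With the replicate number as a block 0 members passed there.

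The HDAC4CA change in thalamus was tested against that in cortex. In wild-type mice 3.52% of all genes were called for such a difference and no member passed by limma (3 at an unadjusted p under 0.05, as for 16% of all genes; 0 by voom). In Sleepy mice at ZT12.5, 8.85% were called, and Rora and Prkcd passed. Rora moved by −0.40 in cortex and by 0.11 ± 0.09 in thalamus, a difference of 0.50 ± 0.11 (limma adjusted p = 0.00779), which without rescaling had an adjusted p of 0.0643 by limma. Prkcd differed by 0.65 ± 0.18 (limma adjusted p = 0.0351), a call lost under 13 of 21 alternatives. For Ntng1, which fell in both regions, the difference was −0.01 ± 0.17 (limma adjusted p = 0.978). Hdac4 itself rose by 1.01 ± 0.12 log2 units more in thalamus than in cortex in these mice. Whether the transgene's level had a part in these differences was not tested. No member's HDAC4CA change in Sleepy thalamus differed between ZT12.5 and ZT0.5 by limma, where 0.0% of all genes were called (1 member at an unadjusted p under 0.05, as for 7.64% of all genes; 0 by voom).

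In hypothalamus no member passed in any transgene, genotype or time comparison by limma. Of all genes, 0.14% were called with HDAC4CA and 0.0% with CREB in wild-type mice, and 0.0346% with HDAC4CA at ZT12.5, 0.0175% with HDAC4CA at ZT0.5 and 0.00574% with CREB in Sleepy mice. The shares for Sleepy against wild type were 0.0% at ZT0.5 and 0.0% at ZT12.5, and those for ZT12.5 against ZT0.5 were 0.22% in wild-type and 0.366% in Sleepy mice. At an unadjusted p under 0.05 there were 0 or 1 members in each of these 9 comparisons. The share of all genes below it was 10.4% and 3.63% with HDAC4CA and CREB in wild-type mice, and 9.2%, 7.87% and 5.68% with HDAC4CA at ZT12.5, HDAC4CA at ZT0.5 and CREB in Sleepy mice. It was 4.45% and 8.74% for Sleepy against wild type at ZT0.5 and ZT12.5, and 11% and 10% for time in wild-type and Sleepy mice. Voom called 0 members in each. Gbx2 reached the minimum for testing in 4 of the 9, all of which use the Sleepy eGFP group at ZT12.5, and without replicate 4 of that group it fell below the minimum in each.

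A single hypothalamus library stood apart. In Sleepy eGFP mice at ZT12.5, replicate 4 held Prkcd at 7.27 scaled FPKM against 1.06, 1.01 and 0.822 in the other replicates. Tcf7l2 stood at 4.55 against 1.09, 1.13 and 0.779, Rora at 10.2 against 5.17, 4.66 and 5.21, and Ntng1 at 5.398 against 2.45, 2.89 and 2.64. Gbx2 stood at 1.44, or 63 reads, against 0.0273, 0.279 and 0.106. Slc17a6 (25.8 against 23.5 to 25.5) and Calb2 (48.8 against 41.7 to 44.9) differed less. The 19 other thalamic relay genes summed to 101.1 in that library and to 66.3, 69.0 and 68.2 in the others, while the 12 hypothalamic markers summed to 467.8 against 401.0, 530.1 and 442.1. The levels of Prkcd, Tcf7l2, Rora, Ntng1, Gbx2 and Lef1 in it were still below every thalamus library of the same group of mice. Sleepy minus wild-type hypothalamus at ZT12.5 was 0.76 for Prkcd with this library and 0.06 ± 0.19 without it, and HDAC4CA minus eGFP was −0.76 with it and −0.06 ± 0.19 without it. No adjusted p passed with it or without it by limma.

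**Figure D4:**
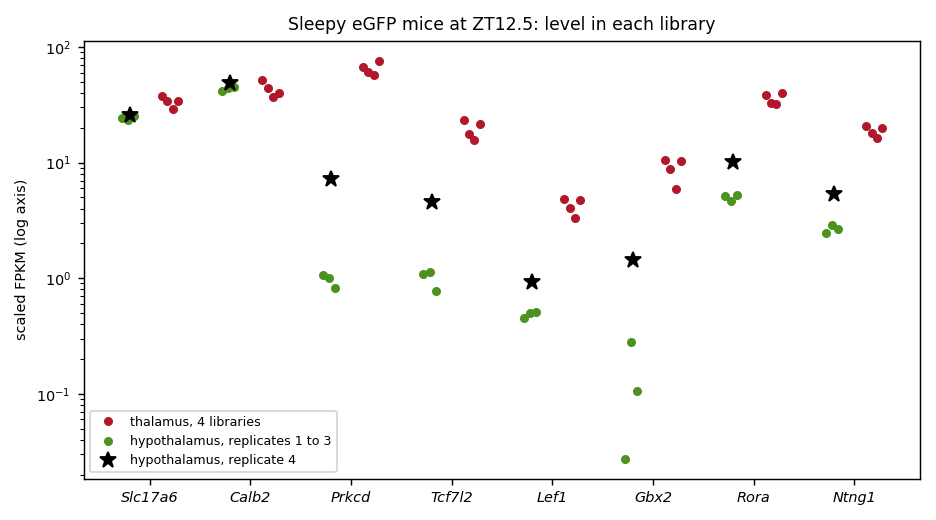
Scaled FPKM (log axis) of the 8 genes in each library of Sleepy eGFP mice at ZT12.5, with hypothalamus replicates 1 to 3 in green, replicate 4 as a black star and thalamus libraries in red. The star lies between the regions for Prkcd, Tcf7l2, Lef1, Gbx2, Rora and Ntng1.

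The Sleepy allele changed no member in any region by limma. In thalamus, 0.0239% of all genes were called at ZT0.5 and 0.0% at ZT12.5, and in cortex 0.0% at ZT0.5 and 0.0% at ZT12.5. At an unadjusted p under 0.05 there were 3 members in thalamus at ZT0.5 (Gbx2, Ntng1 and Tcf7l2; 6.18% of all genes), 0 in thalamus at ZT12.5 (7.95%), 2 in cortex at ZT0.5 (5.77%) and 0 in cortex at ZT12.5 (6.43%), and voom called 0 members in each. The largest of the thalamus differences was Gbx2 at ZT0.5. It stood at 6.50, 4.46, 5.45 and 4.52 scaled FPKM in wild-type and at 6.802, 7.02, 6.71 and 6.50 in Sleepy mice, and no library of one group lay within the range of the other (log2 0.38 ± 0.11; limma adjusted p = 0.505). At ZT12.5 the members' differences lay between −0.13 and 0.01.

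Time of day moved 4 of the 8 genes in wild-type thalamus, all higher at ZT12.5, the start of the dark phase, than at ZT0.5, and 25.2% of all genes were called there. Gbx2 rose from 6.50, 4.46, 5.45 and 4.52 to 7.96, 8.53, 9.56 and 9.27 scaled FPKM (log2 0.76 ± 0.12; limma adjusted p = 0.00226), with no overlap. Prkcd rose by 0.30 ± 0.08 (limma adjusted p = 0.0193), Tcf7l2 by 0.27 ± 0.08 (limma adjusted p = 0.0354) and Calb2 by 0.25 ± 0.06 (limma adjusted p = 0.0113). The Prkcd groups (48.7 to 62.3 and 63.4 to 71.0) and the Calb2 groups (34.6 to 38.3 and 41.3 to 47.2) did not overlap, and the Tcf7l2 groups did. Without rescaling only Gbx2 passed of the 8. Tcf7l2 was also lost without any of 6 single libraries, and Prkcd without any of 3.

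In Sleepy thalamus no member passed for time of day by limma, where 21.0% of all genes were called (1 member, Slc17a6, at an unadjusted p under 0.05, as for 36.1% of all genes; 0 by voom). Gbx2 differed by 0.35 ± 0.16 (limma adjusted p = 0.16), and without replicate 3 of the ZT12.5 group by 0.54 ± 0.07 (limma adjusted p = 0.00358). The difference between genotypes in the time effect was itself tested, and 0.0% of all genes and no member passed by limma (0 members at an unadjusted p under 0.05, against 7.17% of all genes; 0 by voom). For Gbx2 it was −0.40 ± 0.22 (limma adjusted p = 0.747). With the replicate number as a block Slc17a6 passed in Sleepy mice (log2 −0.18; adjusted p = 0.0398), and also without rescaling (log2 −0.25; limma adjusted p = 0.0462). The numbers were not shown to pair these libraries. In cortex the time comparison called 1.48% of all genes in wild-type and 5.44% in Sleepy mice, and no member passed by limma (1 and 2 members at an unadjusted p under 0.05, as for 18.2% and 23.3% of all genes; 0 by voom).

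Replicate 3 of the Sleepy eGFP thalamus group at ZT12.5 was below its group's mean for all 8 members, by 0.26 log2 units on average. The 12 hypothalamic markers summed to 120.5 scaled FPKM in it and to 23.6, 77.8 and 6.32 in replicates 1, 2 and 4, and the 8 markers of reticular and other inhibitory neurons to 134.4 against 81.8, 137.0 and 91.0. Replicate 2, with 137.0, was below the mean for 5 of the 8. All 8 members were also below the group mean in thalamus replicate 2 of Sleepy HDAC4CA at ZT12.5 (mean deviation −0.18 log2 units). The same held for thalamus replicate 2 of wild-type eGFP at ZT0.5 (−0.15) and replicate 1 of wild-type HDAC4CA (−0.10). The 11 choroid plexus genes, among them the transthyretin gene Ttr, varied from 39.7 to 43.8 in the HDAC4CA group at ZT12.5 and from 719.6 to 1997 in its eGFP controls, and all 11 were called lower there. In the other HDAC4CA comparisons 0 of 11 passed, with a median difference of −1.96 in wild-type mice, where single libraries ranged from 58.7 to 2102, and of 0.33 in Sleepy mice at ZT0.5. Their part in the members' changes was not tested. Nr5a1 was at 0 in all 4 libraries of 4 thalamus groups, and Six6 in those of 1.

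Other genes of the same families were examined from lists. Of 19 other thalamic relay genes, 2 rose and 7 fell with HDAC4CA in wild-type thalamus, 1 rose and 8 fell in Sleepy thalamus at ZT12.5, and 4 rose and 8 fell at ZT0.5 (medians −0.12, −0.13 and −0.15). Of all genes, 7.17%, 11.9% and 9.05% were called in either direction in these comparisons. Tnnt1, a troponin T gene, changed by −1.12 ± 0.09 in wild-type, −1.14 ± 0.20 in Sleepy mice at ZT12.5 and −1.58 ± 0.15 at ZT0.5 (limma adjusted p = 6.29e-05, 0.00554 and 0.000348). Ptpn4, a tyrosine phosphatase gene, changed by −0.59 ± 0.06, −0.71 ± 0.06 and −0.79 ± 0.07, and passed in all 3. Slitrk6, which encodes a neuronal adhesion protein, changed by −0.63 ± 0.05 in wild-type and −0.57 ± 0.07 in Sleepy mice at ZT12.5, and Cacna1g, the T-type calcium channel of relay neurons, rose by 0.50 ± 0.06 in Sleepy mice at ZT0.5. With CREB, 1 of 19 rose and 4 fell in wild-type mice, and 0 rose and 3 fell in Sleepy mice, where 3.47% and 4.3% of all genes were called.

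Of the 15 Wnt pathway genes tested, 2 rose and 3 fell with HDAC4CA in wild-type, 2 rose and 2 fell in Sleepy mice at ZT12.5, and 2 rose and 2 fell at ZT0.5, beside the same 7.17%, 11.9% and 9.05% of all genes. The 2 that rose were the same: Notum by 1.02 ± 0.19, 1.24 ± 0.18 and 1.01 ± 0.13, and Nkd1 by 0.32 ± 0.07, 0.67 ± 0.09 and 0.60 ± 0.08. Apc, a part of the complex that degrades beta-catenin, changed by −0.26 ± 0.06, −0.23 ± 0.05 and −0.31 ± 0.05. Axin2 changed by −0.45 ± 0.07 in wild-type and −0.35 ± 0.09 in Sleepy mice at ZT0.5. Slc17a7, which encodes VGLUT1, rose with HDAC4CA by 0.44 ± 0.08, 0.58 ± 0.14 and 0.48 ± 0.08 and was lower with CREB in wild-type mice (−0.34 ± 0.06). It also belongs to the 10 cortical excitatory markers, whose sum was 45.0 to 51.6 scaled RPKM with HDAC4CA and 38.2 to 43.3 with mCherry in wild-type thalamus.

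Among other protein kinase C genes, Prkce was higher with HDAC4CA in Sleepy mice (0.25 ± 0.05 at ZT12.5 and 0.19 ± 0.05 at ZT0.5). Calb1, which encodes calbindin, was lower with HDAC4CA in wild-type mice (−0.28 ± 0.05) and Sleepy mice at ZT12.5 (−0.38 ± 0.08) and with CREB in wild-type (−0.25 ± 0.05) and Sleepy mice (−0.47 ± 0.10). Of the 4 relatives and ligands of netrin-G1, 0 passed with HDAC4CA in wild-type thalamus and 0 in Sleepy thalamus at ZT0.5, and at ZT12.5 Lrrc4b, a leucine-rich repeat adhesion gene, rose by 0.22 ± 0.04. None of the ROR and GBX relatives tested, 3 in wild-type and 2 in Sleepy mice, passed with HDAC4CA. Of all genes, 7.17% were called with HDAC4CA in wild-type thalamus, and 11.9% and 9.05% in Sleepy thalamus at ZT12.5 and ZT0.5. With so few relatives tested, such counts say little about these families.

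Within groups most members varied together over thalamus libraries. Pearson's r between deviations from the group means was above 0 for 27 of 28 pairs of members over the 28 FPKM libraries (median 0.67) and for 24 of 28 over the 12 RPKM libraries (median 0.47). These are descriptions of libraries that share dissections and scaling, with no test. Values for pairs of other genes were not computed, so whether this is particular to the members was not tested. Prkcd and Rora had the highest value over the 28 libraries (r = 0.91), and Rora and Ntng1 over the 12 (r = 0.92). Calb2 stood aside over the 28 libraries, with values from −0.12 to 0.35. Over the 12 its values ran from −0.66 (with Lef1) to 0.54 (with Gbx2), and Slc17a6 with Lef1 was also low (−0.30). With group differences left in, the lowest values were those of Prkcd and Ntng1 over the 28 libraries (r = −0.60, and −0.53 over the 12) and of Tcf7l2 and Ntng1 over the 12 (r = −0.83, and −0.47 over the 28).

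**Figure D5:**
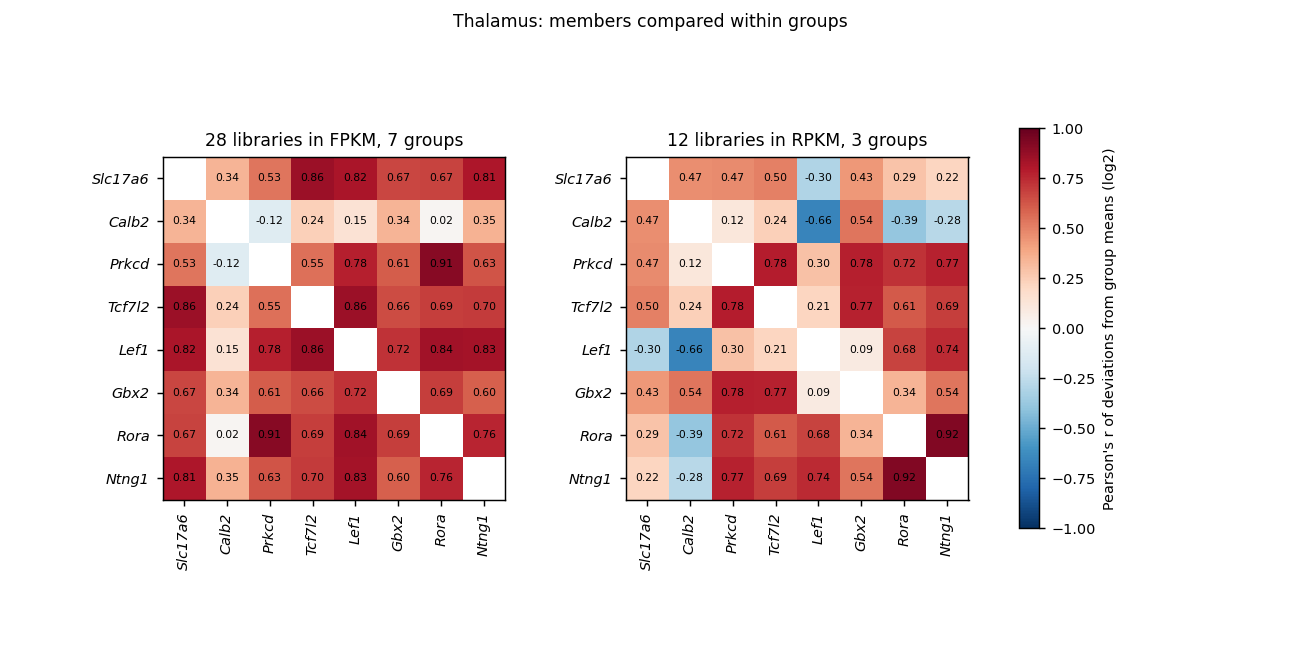
Pearson's r between members of their log2 deviations from group means over 28 thalamus libraries in FPKM (left) and 12 in RPKM (right). Most cells are above 0, and the lowest cell in each panel belongs to Calb2 (−0.12 with Prkcd at left, −0.66 with Lef1 at right).

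The genes whose levels were most like each member's were taken as the 2 with the highest Pearson's r over the 28 FPKM thalamus libraries. For Ntng1 these were Atpaf1 (r = 0.96, and 0.99 over the 12 RPKM libraries) and Tnnt1 (0.96 and 0.97). For Tcf7l2 they were Tanc1 (0.85 and 0.95) and Lrtm2 (0.83 and 0.93), and for Lef1 Pdp1 (0.91 and 0.59) and Mef2a (0.91 and 0.92). Rora was most like Hlf (0.87 and 0.85) and Arhgap32 (0.86 and 0.64), and Prkcd most like Syt7 (0.95 and 0.78) and Ina (0.93 and 0.70). Gbx2 was most like Ncdn (0.93 and 0.45) and Mgat5b (0.91 and 0.65), Calb2 like Ephb6 (0.80 and 0.67) and Grin2d (0.79 and 0.62), and Slc17a6 like Anks1b (0.78 and 0.36) and Cd47 (0.77 and 0.21). The points share libraries, groups and depth.

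By position (GRCm38, GENCODE), Slc17a6 lies at chr7:51622006-51671119 and Tcf7l2 at chr19:55741820-55933654, both on the + strand. Prkcd lies at chr14:30595354-30626210 and Calb2 at chr8:110137502-110168210, both on the − strand. Lef1 lies at chr3:131110471-131224356 (+), Rora at chr9:68653786-69388246 (+) and Gbx2 at chr1:89927956-89931179 (−). Gbx2, Lef1 and Rora share exon sequence with a gene on the opposite strand, and since the strand setting of the counting is not given in the sources used here, reads of such partners cannot be told apart.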

How the data were processed

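RNA of cortex, thalamus and hypothalamus was sequenced in 120 libraries. The authors deposited RPKM per gene for 36 libraries and FPKM per gene for 84. The submitters' processing notes name CASAVA 1.9, STAR 2.6.1a, featureCounts, edgeR 3.28.1 and the GRCm38 build, and the annotation release, strand setting and filters are not given in the sources used here. The extract protocol in the labels names a TIANGEN tissue kit and NEBNext library reagents. Of 49585 gene rows, 26 whose symbols had turned into dates and 93 with repeated symbols were left out.

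The deposited values multiplied by exon-union length (GENCODE M21), and divided by what 1 read is worth in each library, gave whole reads: 94.3% to 95.7% of values up to 20 reads were within 0.1 of a whole number, which gave the depth. Values were scaled by a trimmed mean of log ratios computed within each unit. limma 3.58.1 (R 4.3.3; trended, robust) compared 4 with 4 libraries on log2(scaled value + 0.1) for genes averaging 10 recovered reads or more (where no length was known, a mean value of 1 or more), with Benjamini-Hochberg adjustment over all genes tested. The plan was written before the unit of the files was known. It named limma on the log scale for RPKM or FPKM and a count test for counts. Since the files hold RPKM and FPKM, limma was used. The steps were tested on simulated data: for HDAC4CA against mCherry in wild-type thalamus, over 16323 genes, 40 of 48 genes lowered and 45 of 50 raised by 1 log2 unit were called, and at 0.5 log2 units 13 of 48 and 14 of 50. In that simulation changes of the smaller size were often missed. It used an assumed spread and genes of all levels tested, so the share missed among the members was not measured.

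The members, the lists and the tests were chosen with earlier results of these data known. Each comparison names all 8 members, and of each other list up to 4 genes with the smallest adjusted p in a thalamus comparison were eligible to be named. Some results of these lists are not reported here. Most-like genes needed a mean of at least 1 in the FPKM thalamus libraries, and predicted genes and pseudogenes were passed over. Same-numbered libraries had correlated deviations (every r over 0.1) in wild-type cortex, HDAC4CA and CREB against mCherry (r from 0.12 to 0.71). The highest r was that of replicate 4 (0.65 and 0.71), the low ribosomal-protein library of each group. In both comparisons only 1 of 4 libraries was most like the library of its own number. The labels give no pairing, and these values do not show one. No 2 libraries of a group agreed within sampling noise (smallest chi-square per degree of freedom 2.01). P-values measure the spread between these libraries.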

Additional observations from a re-analysis of the deposited data

Results flagged for a closer look

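In groups of 4, the highest or lowest library was set against the gap to its nearest neighbour divided by the group's range, and compared with Dixon's 95% critical value. Of 240 combinations of member and group, 23 passed it, where chance passes about 1 in 20. In Sleepy eGFP hypothalamus at ZT12.5, replicate 4 was the highest for Prkcd (7.27 scaled FPKM, nearest other 1.06), Tcf7l2 (4.55 scaled FPKM, nearest other 1.13), Lef1 (0.922 scaled FPKM, nearest other 0.513), Rora (10.2 scaled FPKM, nearest other 5.21) and Ntng1 (5.398, nearest other 2.89). The other thalamic relay genes moved with these values in that library, as described above, and the part of either was not tested.

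Slc17a6 stood apart in 3 other groups, wild-type CREB thalamus at ZT12.5 (replicate 2 highest at 55.7 scaled RPKM, nearest other 52.8), and wild-type mCherry cortex at ZT12.5 (replicate 1 lowest at 2.86 scaled RPKM, nearest other 3.87), and wild-type mCherry hypothalamus at ZT12.5 (replicate 2 highest at 36.3 scaled RPKM, nearest other 33.5). Calb2 stood apart in 4 other groups, Sleepy HDAC4CA thalamus at ZT0.5 (replicate 2 lowest at 37.4 scaled FPKM, nearest other 41.3), and wild-type CREB hypothalamus at ZT12.5 (replicate 4 lowest at 52.1 scaled RPKM, nearest other 56.1), and wild-type HDAC4CA thalamus at ZT12.5 (replicate 4 highest at 58.1 scaled RPKM, nearest other 50.7), and wild-type eGFP hypothalamus at ZT0.5 (replicate 1 highest at 49.0 scaled FPKM, nearest other 42.2). Prkcd stood apart in 2 other groups, Sleepy CREB cortex at ZT12.5 (replicate 1 highest at 0.990 scaled FPKM, nearest other 0.638), and wild-type mCherry cortex at ZT12.5 (replicate 2 highest at 1.10 scaled RPKM, nearest other 0.742). Tcf7l2 stood apart in Sleepy CREB hypothalamus at ZT12.5 (replicate 1 highest at 1.47 scaled FPKM, nearest other 1.09). Lef1 stood apart in wild-type mCherry hypothalamus at ZT12.5 (replicate 1 lowest at 0.548 scaled RPKM, nearest other 0.671). Gbx2 stood apart in Sleepy HDAC4CA thalamus at ZT0.5 (replicate 1 highest at 5.53 scaled FPKM, nearest other 4.92). Rora stood apart in 5 other groups, Sleepy eGFP thalamus at ZT0.5 (replicate 2 highest at 42.1 scaled FPKM, nearest other 37.4), and wild-type CREB thalamus at ZT12.5 (replicate 1 highest at 56.4 scaled RPKM, nearest other 47.6), and wild-type HDAC4CA cortex at ZT12.5 (replicate 1 highest at 8.53 scaled RPKM, nearest other 7.38), and wild-type HDAC4CA hypothalamus at ZT12.5 (replicate 3 lowest at 5.37 scaled RPKM, nearest other 5.92), and wild-type mCherry cortex at ZT12.5 (replicate 4 highest at 10.3 scaled RPKM, nearest other 8.70). Ntng1 stood apart in wild-type mCherry thalamus at ZT12.5 (replicate 3 lowest at 24.8 scaled RPKM, nearest other 26.9). 

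A difference between regions in the HDAC4CA change of Sleepy mice at ZT12.5 passed for Prkcd (0.65 log2 units, thalamus minus cortex) and Rora (0.50).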

How the results depend on the processing

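No direction of a called value reversed under any alternative, and of the single-gene values recomputed 1203 kept their side of the threshold, 57 lost it and 45 gained it. In every region comparison, all alternatives gave 7 or 8 members, and without single libraries thalamus against hypothalamus in mCherry mice gave 7 to 8. Counts of members that moved were as follows. With voom, CREB in wild-type thalamus gave 2 in place of 0, CREB in Sleepy thalamus 1 in place of 0, HDAC4CA in Sleepy thalamus at ZT0.5 gave 5 in place of 3, HDAC4CA against CREB in Sleepy thalamus 5 in place of 3, HDAC4CA in wild-type cortex 1 in place of 0, HDAC4CA in Sleepy cortex at ZT0.5 2 in place of 0, and the Sleepy thalamus-minus-cortex difference 1 in place of 2. With no filter on low values, HDAC4CA in Sleepy thalamus at ZT12.5 gave 1 in place of 2, wild-type time in thalamus 2 in place of 4, HDAC4CA in Sleepy cortex at ZT12.5 1 in place of 2, and the Sleepy thalamus-minus-cortex difference 1 in place of 2. Without rescaling, wild-type time in thalamus gave 1 in place of 4, Sleepy time 1 in place of 0, HDAC4CA against CREB in Sleepy thalamus 1 in place of 3, and the Sleepy thalamus-minus-cortex difference 0 in place of 2. With a pseudocount of 1, HDAC4CA in wild-type cortex gave 1 in place of 0 and the wild-type thalamus-minus-cortex difference 2 in place of 0. With scaling within the libraries compared, chosen after seeing the data, HDAC4CA in wild-type cortex gave 1 in place of 0. With the replicate block, time in Sleepy thalamus gave 1 member in place of 0, and among other counts the block moved none by over 1.5 times.

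Leaving out single libraries gave 0 to 2 members for CREB in wild-type thalamus, 0 to 1 for CREB in Sleepy thalamus, 2 to 3 for HDAC4CA in wild-type and 2 to 3 in Sleepy thalamus at ZT12.5, 3 to 4 at ZT0.5, 2 to 4 for wild-type time and 0 to 1 for Sleepy time in thalamus. HDAC4CA against CREB gave 2 to 3 in wild-type and 2 to 5 in Sleepy mice. HDAC4CA in cortex gave 0 to 2 in wild-type, 1 to 2 in Sleepy mice at ZT12.5 and 0 to 1 at ZT0.5, in wild-type hypothalamus 0 to 1, and the thalamus-minus-cortex difference 0 to 1 in wild-type and 1 to 3 in Sleepy mice. The Ntng1 fall with HDAC4CA in thalamus held under all 14 alternatives in each of 3 comparisons (log2 −0.96 to −0.55), with a highest adjusted p of 0.00879 by limma. Apart from the wild-type cortex groups, some correlations between deviations of same-numbered libraries were below 0.1 in every comparison. In wild-type cortex the highest was that of replicate 4, the low ribosomal-protein library. In thalamus against cortex of wild-type eGFP mice at ZT12.5, all 4 libraries were most like the library of their own number (r from 0.01 to 0.04). The same held for Sleepy against wild-type hypothalamus with eGFP at ZT12.5 (r from 0.06 to 0.13). Pairing by number was therefore not settled, and the main tests treat all libraries as independent. The counts over all genes moved by over 1.5 times in several comparisons: without rescaling, CREB in wild-type thalamus gave 267 called genes in place of 586, HDAC4CA in Sleepy thalamus at ZT12.5 1082 in place of 2009, and wild-type time in thalamus 2533 in place of 4264, and without the low-ribosomal libraries HDAC4CA in wild-type cortex gave 543 in place of 903. With the replicate block, CREB in wild-type thalamus gave 175 in place of 586, HDAC4CA in Sleepy thalamus at ZT0.5 927 in place of 1515, and HDAC4CA against CREB in wild-type thalamus 1461 in place of 2255. Without rescaling the median over all genes shifted to 0.21, 0.31 and 0.28 in thalamus against cortex (mCherry, eGFP at ZT12.5 and at ZT0.5), to −0.15 in thalamus against hypothalamus with eGFP at ZT12.5, and to −0.12 in HDAC4CA against CREB in Sleepy thalamus. Depth limits Gbx2 outside thalamus.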
